A study of Mus musculus with 8 samples.

Results

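The miR-200 family was examined in small RNA libraries of mouse CD8+ T cells. Its members were the 3p strands of 5 hairpins, miR-200b, miR-200a, miR-429, miR-200c and miR-141, taken by name from the deposited table. All 5 were found, among 1978 distinct mature names, each in 1 row, and all 5 passed the filter on low counts, as did 382 miRNAs in all. The 8 libraries came from spleen and formed 4 groups of 2: mCre MP, WT MP, mCre TN and WT TN. MP and TN are 2 subsets of CD8+ T cells, sorted with stains that included CD44 and CD122. The abbreviations are commonly read as memory phenotype (MP) and true naive (TN), and the series' design text writes VM where the titles have MP, and Cre- where they have mCre. The series title ties mCre to miR-29 and to Cre, a recombinase that deletes marked genes. The sources do not name the promoter that drives Cre or the deleted sequence. They say adult or neonatal without giving the age behind a library, and leave unsaid whether replicates are different mice. The p-values therefore describe how far these libraries spread, some of which may be technical.

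The miR-200 family is best known from epithelial cells, where its members bind the mRNAs of the transcription factors ZEB1 and ZEB2 and keep them low, while both factors repress the miR-200 genes in turn. In CD8+ T cells ZEB2 promotes terminal effector differentiation and ZEB1 supports memory cells, and work in mice has tied the miR-200 family to that pair of factors. The mRNAs of ZEB1 and ZEB2 were not measured in these libraries. A miRNA finds its targets mainly through its seed, bases 2 to 8 from the 5′ end.

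The 5 mature sequences (RefSeq, GRCm38.p6) are shown because a single seed base divides the family and because their likeness bears on how reads can be assigned. Capitals mark the seed.
mmu-miR-200b-3p: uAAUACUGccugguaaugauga
mmu-miR-200c-3p: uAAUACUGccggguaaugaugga
mmu-miR-429-3p: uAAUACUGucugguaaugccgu
mmu-miR-200a-3p: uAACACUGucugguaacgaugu
mmu-miR-141-3p: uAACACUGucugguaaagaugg
The first 3 share the seed AAUACUG and the last 2 the seed AACACUG, and no other mature mouse miRNA in the RefSeq table has either seed. Between the seed groups, miR-200b-3p and miR-200a-3p differ within the seed by U4C, with positions counted from the 5′ end. Within a seed group the differences lie outside it. miR-200b-3p and miR-200c-3p differ by U11G and A22G over 22 aligned bases, and miR-200a-3p and miR-141-3p by C17A and U22G, so miR-200a-3p and miR-141-3p begin with the same 16 bases.

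The seed groups cut across the genes. Mir200b (chr4:156055681-156055750), Mir200a (chr4:156054896-156054985) and Mir429 (chr4:156053905-156053987) lie on the minus strand within 1846 bases of chromosome 4, in introns of the protein-coding gene Ttll10 (GENCODE M21, GRCm38). The noncoding gene Gm13648 also spans all 3, with an exon over Mir429. Mir200c (chr6:124718322-124718390) and Mir141 (chr6:124717914-124717985) lie on the minus strand within 477 bases of chromosome 6, in an intron of the noncoding gene Gm15884, and Mir141 also overlaps an exon of Gm29008. The nearest protein-coding genes are Phb2, 963 bases from Mir141 on one side, and Ptpn6, 2316 bases from Mir200c on the other. Ptpn6 encodes SHP-1, a phosphatase that dampens T cell receptor signals.

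The libraries held 1936597 to 5230975 counts. The lymphocyte miRNAs miR-142a-3p, miR-142a-5p, miR-150-5p and miR-342-3p, used as a coarse check of the cell type, were present in all 8 libraries at a summed 45580 to 167100 CPM. No markers of other lymphocytes were read, so they do not set T cells apart from those. CPM here are counts scaled to library size with TMM factors, which correct for differences in library make-up. The 3 main miR-29 strands, a check of the mCre label, took 0.0774% and 0.132% of counts in mCre MP, and 0.367% and 1.14% in WT MP. In TN they took 0.169% and 1.59% in mCre replicates 1 and 2, and 0.354% and 0.0770% in WT replicates 1 and 2. In TN replicate 2 the mCre library thus stood above the WT library, the reverse of TN replicate 1 and of MP. If miR-29 is lower in mCre, as it was in MP, both libraries labelled TN replicate 2 ran against their genotype labels. The sources do not name the deleted sequence, so that direction is read from these libraries alone. The MP against TN and within-TN results below are also given without both. That leaves only replicate 1 in mCre TN and in WT TN.

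The family was a small part of the miRNA of these cells. In percent of all miRNA counts it took 0.149 and 0.187 in mCre MP, 0.306 and 0.219 in WT MP, 0.149 and 0.0719 in mCre TN, and 0.254 and 0.114 in WT TN. The 95% Wilson interval was widest in WT MP replicate 1, at 0.300% to 0.312%. Intervals cover counting error only. All 5 mature strands have 22 or 23 bases, so levels in CPM compare members without a correction for length. Some reads look divided between members of a seed group, and how many is not known. Differences between sequences in ligation and capture were not measured.

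Over the 8 libraries mmu-miR-200b-3p averaged 1040 ± 499 CPM, mmu-miR-200a-3p 494 ± 209 CPM, mmu-miR-200c-3p 231 ± 52.0 CPM, mmu-miR-429-3p 14.8 ± 14.1 CPM and mmu-miR-141-3p 6.96 ± 4.04 CPM (SD, n = 8). By mean level they ranked 61, 85, 106, 212 and 267 among the 382 miRNAs tested. miR-200b-3p exceeded miR-200a-3p in 8 of 8 libraries, although their ranges over libraries overlapped. miR-200a-3p exceeded miR-200c-3p in 7 of 8, the exception being the library labelled mCre TN replicate 2, where miR-200c-3p at 292 CPM was also above miR-200b-3p at 249 CPM. miR-200c-3p stood above miR-429-3p in 8 of 8 with no overlap of their ranges. miR-429-3p and miR-141-3p could not be put in order beyond their spread. miR-429-3p was higher in 6 libraries, equal in 1 and lower in 1.

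The 3 members of the chromosome 4 cluster are considered first, for the question of how MP cells differ from TN cells. miR-200a-3p, of the AACACUG seed, was 595 and 712 CPM in mCre MP and 697 and 682 CPM in WT MP, against 278 and 162 CPM in mCre TN and 383 and 446 CPM in WT TN. All 4 MP libraries lay above all 4 TN libraries. Its fitted log2 change over both genotypes was 1.15 ± 0.39 (SE), a 2.22-fold higher level that did not pass the threshold of 0.05 (edgeR quasi-likelihood adjusted p = 0.258). Of the 382 miRNAs tested, 6.81% were likewise higher in all 4 MP libraries without overlap, and 4.45% were lower without overlap.

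miR-200b-3p, the most abundant member and of the AAUACUG seed, was 957 and 1292 CPM in mCre MP and 1781 and 1325 CPM in WT MP, against 740 and 249 CPM in mCre TN and 1385 and 586 CPM in WT TN. The subsets overlapped only through WT TN replicate 1, which stood above 3 of the MP libraries. The log2 change was 0.92 ± 0.50 (SE, edgeR adjusted p = 0.506). It was 0.26 without both TN replicate 2 libraries, against 0.91 for miR-200a-3p. miR-429-3p, encoded in the same cluster, was far lower, at 1.06 and 10.1 CPM in mCre MP and 20.5 and 45.5 CPM in WT MP, against 8.81 and 14.9 CPM in mCre TN and 15.3 and 2.25 CPM in WT TN. Its MP libraries held both its lowest and its highest value, and its log2 change of 0.45 ± 1.02 (SE, edgeR adjusted p = 0.880) was -0.25 without the library labelled WT TN replicate 2 and -0.09 without WT MP replicate 2. It was 0.12 without both TN replicate 2 libraries. Its lowest level rested on 2 counts.

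The chromosome 6 members did not stand higher in MP. miR-200c-3p was 131 and 210 CPM in mCre MP and 218 and 279 CPM in WT MP, against 258 and 292 CPM in mCre TN and 259 and 204 CPM in WT TN. The groups overlapped, the log2 change was -0.29 ± 0.38 (SE, edgeR adjusted p = 0.807), and the value was -0.46 without both TN replicate 2 libraries. miR-141-3p was 2.12 and 2.73 CPM in mCre MP and 9.46 and 10.6 CPM in WT MP, against 6.65 and 11.1 CPM in mCre TN and 10.7 and 2.25 CPM in WT TN. It overlapped as well, with a log2 change of -0.57 ± 0.79 (SE, edgeR adjusted p = 0.820), and -0.88 without both TN replicate 2 libraries. Its counts ran from 4 to 40 in a library, which limits what can be seen of it.

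Across the family, 3 of 5 members were fitted above 0 and 2 below in MP against TN, with a median log2 change of 0.45, beside -0.04 over all 382 miRNAs, of which 49.5% were above 0. No member passed by edgeR's quasi-likelihood test or by DESeq2, and 1 had an unadjusted p under 0.05, while 2.36% of all miRNAs tested passed and 13.1% had an unadjusted p under 0.05. In these bulk libraries, fewer cells with a miRNA and less of it per cell cannot be told apart.

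**Figure D1:**
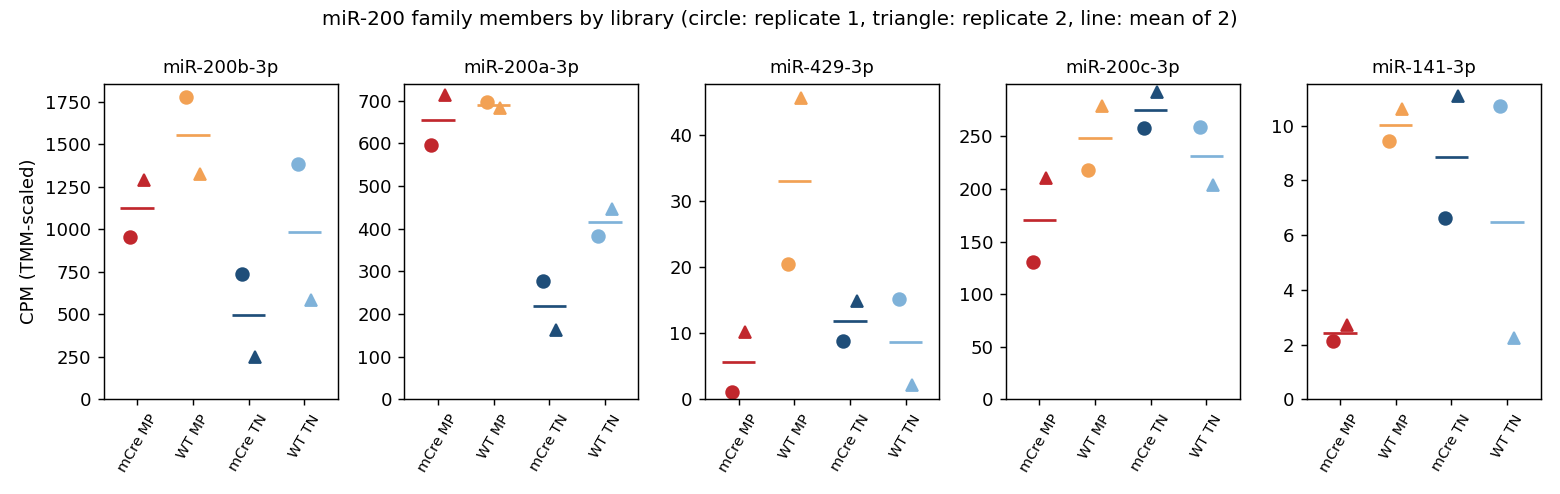
Levels of the 5 family members in TMM-scaled CPM (vertical axes, each from 0) in the 8 libraries, with 1 point per library and a line at the mean of the 2 libraries of a group. miR-200a-3p lies at 595 to 712 CPM in MP and at 162 to 446 CPM in TN, while miR-200c-3p overlaps between the subsets.

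The partner strands give a second reading of the same hairpins, since both arms are cut from 1 precursor. Of the 5 partner strands, 2 passed the filter, both from chromosome 4. miR-200b-5p was 28.1 and 44.8 CPM in mCre MP and 34.3 and 27.8 CPM in WT MP, against 12.5 and 17.0 CPM in mCre TN and 11.2 and 19.2 CPM in WT TN. Its 4 MP libraries lay above its 4 TN libraries, beside 6.81% of all miRNAs higher and 4.45% lower without overlap. The log2 change of 1.17 ± 0.40 (SE, edgeR adjusted p = 0.258) did not pass. miR-200a-5p was 71.5 and 21.8 CPM in mCre MP and 14.1 and 19.4 CPM in WT MP, against 8.14 and 6.24 CPM in mCre TN and 8.84 and 24.8 CPM in WT TN. The highest TN value, in the library labelled WT TN replicate 2, exceeded 3 of the MP values, and the log2 change was 1.34 ± 0.76 (SE, edgeR adjusted p = 0.545). Without both TN replicate 2 libraries the log2 changes were 1.39 for miR-200b-5p (edgeR adjusted p = 0.0713) and 1.51 for miR-200a-5p (edgeR adjusted p = 0.117). The value of miR-200a-5p rested on single libraries, at 0.56 without mCre MP replicate 1 (edgeR adjusted p = 0.977) and 0.68 without the library labelled mCre TN replicate 2 (edgeR adjusted p = 0.886).

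The 3p arm made up nearly all of each hairpin. For miR-200b the 3p share of the counts from both arms averaged 97.5% ± 0.687 in MP libraries and 97.0% ± 2.46 in TN libraries (n = 4 each, SD). For miR-200a it was 95.4% ± 4.10 in MP libraries and 96.5% ± 1.30 in TN libraries (n = 4 each, SD), and its lowest value was 89.3% in mCre MP replicate 1 (exact binomial 95% interval 87.4% to 90.9%). miR-200c-5p and miR-429-5p had 0 counts in every library, which allows up to 3 counts, or 0.574 to 1.55 CPM of the library total. miR-141-5p had 5 counts, all in mCre TN replicate 1.

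The balance between the gene clusters was read next, as a ratio within a library that needs no scaling. The ratio of miR-200a-3p to miR-200c-3p was 4.55 and 3.39 in mCre MP and 3.20 and 2.44 in WT MP, against 1.08 and 0.553 in mCre TN and 1.48 and 2.19 in WT TN. Each of the 4 MP libraries lay above each TN library. Leaving out TN libraries cannot create an overlap, so it is no check of this split. Among all 72771 pairs of tested miRNAs, 10.4% had ratios without overlap between MP and TN in one direction or the other. The ratio of miR-200b-3p to miR-200c-3p was 7.32 and 6.15 in mCre MP and 8.18 and 4.75 in WT MP, against 2.87 and 0.853 in mCre TN and 5.35 and 2.87 in WT TN, so that WT TN replicate 1 stood above WT MP replicate 2.

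As a share of family counts, the chromosome 4 cluster took 92.1% and 90.45% in mCre MP and 91.7% and 87.6% in WT MP, against 79.5% and 58.4% in mCre TN and 86.9% and 83.4% in WT TN. The groups did not overlap. Leaving out TN libraries cannot create an overlap, so it is no check of this. How often shares of other summed miRNAs split so was not counted. The share also draws on the same counts as the ratios above, so it is no separate reading. However, the exact binomial 95% interval of WT MP replicate 2, 86.9% to 88.3%, met that of WT TN replicate 1, 86.1% to 87.6%. The AAUACUG seed took 69.2% ± 4.03 of family counts in MP and 74.7% ± 7.50 in TN libraries (n = 4 each, SD), with overlapping ranges of 64.6% to 74.1% in MP and 63.9% to 80.8% in TN. Leaving out both TN replicate 2 libraries was added here after seeing the data. The 2 remaining TN libraries, at 78.0% in mCre and 80.8% in WT, then lay above all 4 MP libraries. How often other miRNAs split so, with 2 against 4 libraries, was not counted, so the split is only described.

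**Figure D2:**
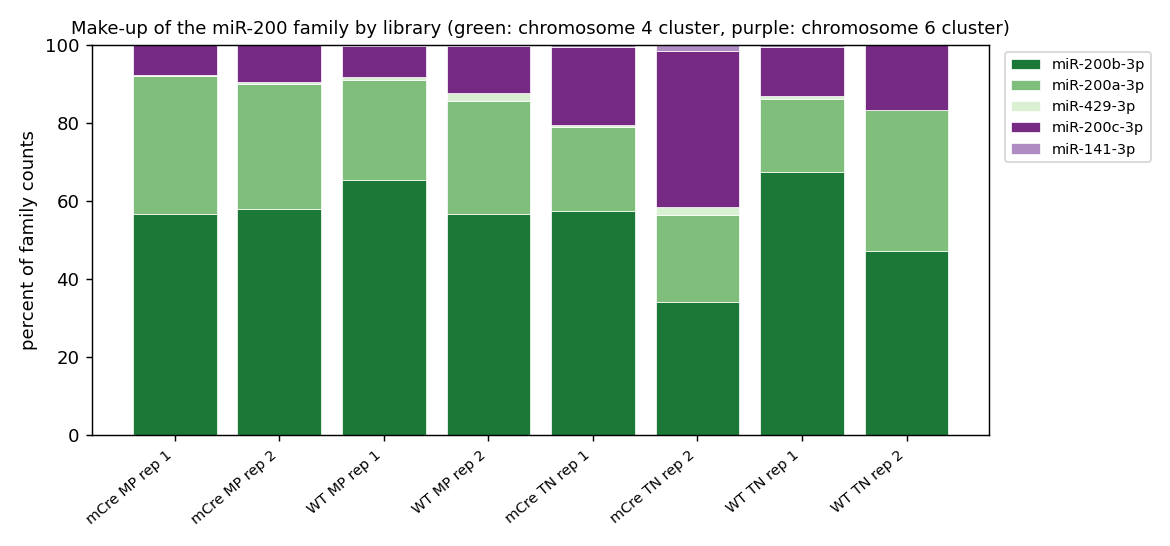
Share of each member in the family's counts (vertical axis, percent) in each of the 8 libraries, with the chromosome 4 members in green and the chromosome 6 members in purple. The chromosome 4 share runs from 87.6% to 92.1% in MP and from 58.4% to 86.9% in TN.

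**Figure D3:**
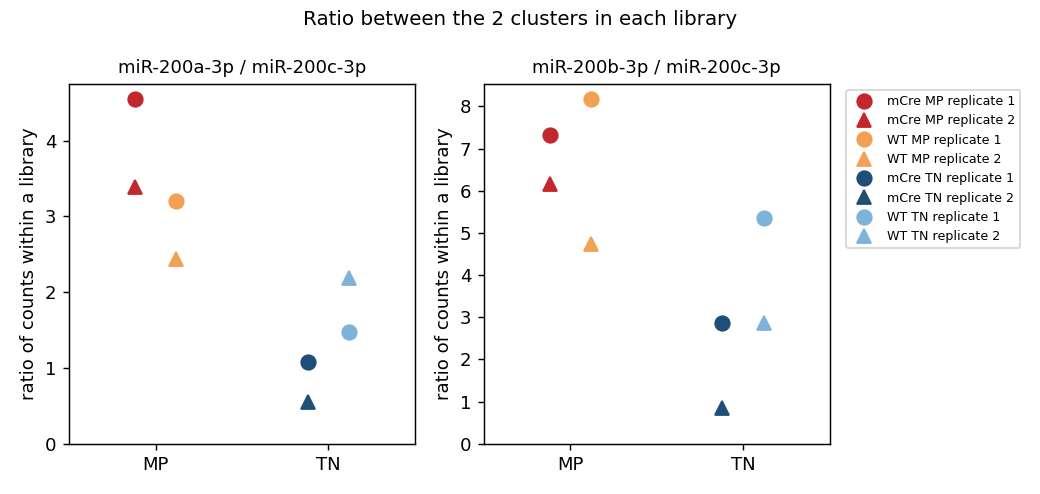
Ratio of miR-200a-3p (left) and miR-200b-3p (right) to miR-200c-3p, as counts within a library (vertical axes, from 0), with 1 point per library. The left ratio is 2.44 or more in MP and 2.19 or less in TN, while the right ratio overlaps.

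How far the members varied together was read over the 8 libraries. Described by Pearson's r on log2 CPM, miR-200b-3p and miR-200a-3p had r = 0.847, and miR-200c-3p and miR-141-3p r = 0.801. For miR-429-3p Pearson's r was 0.810 with miR-200c-3p and 0.851 with miR-141-3p, beside 0.252 with miR-200b-3p and 0.003 with miR-200a-3p. By rank the order was less clear, since Spearman's rho of miR-429-3p was 0.714, 0.762, 0.619 and 0.214 with miR-200c-3p, miR-141-3p, miR-200b-3p and miR-200a-3p, and that of miR-200b-3p with miR-200a-3p was also 0.619. Over the 6 libraries other than TN replicate 2, r was 0.654 for miR-200b-3p with miR-200a-3p and 0.819 for miR-200c-3p with miR-141-3p. For miR-429-3p it was 0.881 with miR-200c-3p and 0.825 with miR-141-3p, beside 0.556 with miR-200b-3p and 0.137 with miR-200a-3p. These values share the libraries' depth and scaling, and miR-429-3p and miR-141-3p rest on few counts. miR-200b-3p exceeded miR-429-3p by 16.7 to 904 times in a library, and miR-200c-3p exceeded miR-141-3p by 23.0 to 90.5 times.

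Within mCre, MP stood higher than TN for miR-200a-3p (log2 change 1.57 ± 0.51, SE, edgeR adjusted p = 0.197) and miR-200b-3p (1.18 ± 0.70, adjusted p = 0.329). It stood lower for miR-200c-3p (-0.69 ± 0.50, adjusted p = 0.401), miR-141-3p (-1.84 ± 0.95, adjusted p = 0.271) and miR-429-3p (-1.04 ± 1.16, adjusted p = 0.569). The 2 members above 0 stand beside 45.3% of all miRNAs above 0. None of the 5 passed, and neither did any of the 382 miRNAs (0% called) by edgeR's quasi-likelihood test. In this comparison 21.5% of all miRNAs, and 1 member, miR-200a-3p, had an unadjusted p under 0.05; DESeq2 called 41 miRNAs and no member. The mCre MP and mCre TN libraries did not overlap for 4 of 5 members, 2 higher and 2 lower, miR-429-3p being the exception. Of all miRNAs 29.6% were higher and 35.6% lower without overlap. Without both TN replicate 2 libraries, only replicate 1 was left in mCre TN. The log2 changes of miR-200a-3p and miR-200b-3p were then 1.09 and 0.47, and those of miR-200c-3p, miR-141-3p and miR-429-3p were -0.72, -1.57 and -0.69. The partner strand miR-200a-5p had a log2 change of 2.68 ± 0.82 (SE, edgeR adjusted p = 0.183), and DESeq2 called it (adjusted p = 0.0229). It was 2.30 without both TN replicate 2 libraries (edgeR adjusted p = 0.0923) and 1.62 without mCre MP replicate 1 (edgeR adjusted p = 0.615).

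Within WT, all 5 members were fitted above 0 in MP against TN, beside 52.9% of all miRNAs. miR-200a-3p was 689 ± 10.6 CPM in WT MP and 415 ± 44.8 CPM in WT TN (n = 2 each, SD), with a log2 change of 0.73 ± 0.50 (SE, edgeR adjusted p = 0.730). miR-429-3p was 33.0 ± 17.7 CPM in WT MP and 8.76 ± 9.20 CPM in WT TN (n = 2 each, SD), with a log2 change of 1.87 ± 1.15 (SE, edgeR adjusted p = 0.669) that was 0.98 without both TN replicate 2 libraries. These 2 members did not overlap, while 26.2% of all miRNAs were higher and 13.4% lower without overlap. The log2 change was 0.66 ± 0.70 for miR-200b-3p, 0.10 ± 0.50 for miR-200c-3p and 0.59 ± 0.88 for miR-141-3p (SE), each with overlap and an edgeR adjusted p of 0.805 or more. Without both TN replicate 2 libraries, with only replicate 1 left in WT TN, the signs of miR-200c-3p and miR-141-3p turned, to -0.18 and -0.21. In that fit miR-200b-3p was 0.06 and miR-200a-3p 0.73. By edgeR's quasi-likelihood test 0% of the 382 miRNAs passed, 8.12% (no member) had an unadjusted p under 0.05, and 10 miRNAs (no member) passed by DESeq2. The partner strand miR-200a-5p had a log2 change of 0.006 ± 0.77 (SE, edgeR adjusted p = 0.995), and 0.79 without both TN replicate 2 libraries.

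The difference between these subset effects was tested in the same fit. The log2 difference, mCre minus WT, was -2.92 ± 1.63 for miR-429-3p, -2.43 ± 1.29 for miR-141-3p, -0.79 ± 0.70 for miR-200c-3p, 0.84 ± 0.71 for miR-200a-3p and 0.53 ± 0.98 for miR-200b-3p (SE), so 2 of 5 were above 0, beside 42.7% of all miRNAs. The differences were -1.66, -1.36, -0.54, 0.36 and 0.41 in the same order without both TN replicate 2 libraries. With all libraries the edgeR adjusted p ran from 0.415 to 0.848 over the members, and 0% of all miRNAs passed; 14.1% of miRNAs, and no member, had an unadjusted p under 0.05, and DESeq2 called 9 miRNAs and no member.

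The genotypes were then compared within a subset, which asks whether the mCre libraries differ from WT in this family. Among MP libraries the scarce members were lower in mCre. miR-429-3p was 5.59 ± 6.41 CPM in mCre MP and 33.0 ± 17.7 CPM in WT MP (SD, n = 2 each). miR-141-3p was 2.12 and 2.73 CPM in mCre MP and 9.46 and 10.6 CPM in WT MP. In mCre MP replicates 1 and 2 these levels rested on 2 and 26 counts of miR-429-3p and 4 and 7 counts of miR-141-3p. The log2 change was -2.52 ± 1.19 for miR-429-3p and -2.03 ± 0.95 for miR-141-3p (SE, both edgeR adjusted p = 0.411). Without both TN replicate 2 libraries these 2 values were -2.47 and -2.06. With 1 library left out miR-429-3p ran from -4.91 (without mCre MP replicate 2) to -1.62 (without mCre MP replicate 1). Among markers of other cells, the myeloid and the endothelial and stromal sums were lower in the same mCre libraries. The erythroid sum was higher, at 132 ± 35.4 CPM in mCre MP and 76.6 ± 5.46 CPM in WT MP (SD, n = 2 each). That sum was mostly miR-486a-5p, and the 2 erythroid markers tested went opposite ways, 1 above and 1 below 0, with a median log2 change of -1.02. Without both TN replicate 2 libraries miR-486a-5p was 0.84 and miR-451a -3.07. The myeloid markers summed to 1.59 and 3.51 CPM in mCre MP and 12.2 and 11.4 CPM in WT MP, and the endothelial and stromal markers averaged 43.9 ± 7.37 CPM in mCre MP and 84.8 ± 21.6 CPM in WT MP (SD, n = 2 each). All 4 lymphocyte miRNAs were fitted below 0 in this comparison, with a median log2 change of -1.42. Their median was -1.44 without both TN replicate 2 libraries, again with all 4 below 0. They summed to 45580 and 75840 CPM in mCre MP and 90550 and 112500 CPM in WT MP. The part of these shifts in the family's values was not tested. miR-200c-3p (-0.54 ± 0.50) and miR-200b-3p (-0.47 ± 0.69) were also lower in both mCre libraries than in both WT libraries. miR-200a-3p was 654 ± 82.6 CPM in mCre MP and 689 ± 10.6 CPM in WT MP (SD, n = 2 each), with overlap and a log2 change of -0.08 ± 0.50. Without both TN replicate 2 libraries miR-200c-3p was -0.56, miR-200b-3p -0.505 and miR-200a-3p -0.11. The 4 members without overlap stand beside 37.4% of all miRNAs that were lower in mCre MP without overlap and 27.2% that were higher; 0 of 5 were fitted above 0, beside 42.1% of all miRNAs. No member passed; 0% of the 382 passed by edgeR's quasi-likelihood test, 10.7% had an unadjusted p under 0.05, with no member among them, and DESeq2 called 0.

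Among TN libraries the abundant chromosome 4 members had lower fitted levels in mCre. miR-200a-3p was 220 ± 82.2 CPM in mCre TN and 415 ± 44.8 CPM in WT TN (n = 2 each, SD), with a log2 change of -0.92 ± 0.50 (SE, edgeR adjusted p = 0.957). It was the only member without overlap, beside 6.81% of all miRNAs lower and 15.7% higher without overlap. miR-200b-3p had a log2 change of -0.99 ± 0.70 (SE), with overlap. That value rested on single libraries, at -1.99 without mCre TN replicate 1, -0.47 when the library labelled mCre TN replicate 2 was left out and -0.20 without WT TN replicate 1. The 3 members above 0 stand beside 51.8% of all miRNAs. miR-200c-3p, miR-141-3p and miR-429-3p were fitted at 0.25 ± 0.50, 0.41 ± 0.88 and 0.39 ± 1.13 (SE). Leaving out both TN replicate 2 libraries sets replicate 1 of mCre TN against replicate 1 of WT TN. There these 3 members were negative, at -0.02, -0.70 and -0.80, while miR-200a-3p was -0.47 and miR-200b-3p -0.92. With 1 library on each side, the spread within a group cannot be seen. By edgeR's quasi-likelihood test 0% of the 382 miRNAs passed, 3.14% (no member) had an unadjusted p under 0.05, and 0 passed by DESeq2.

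**Figure D4:**
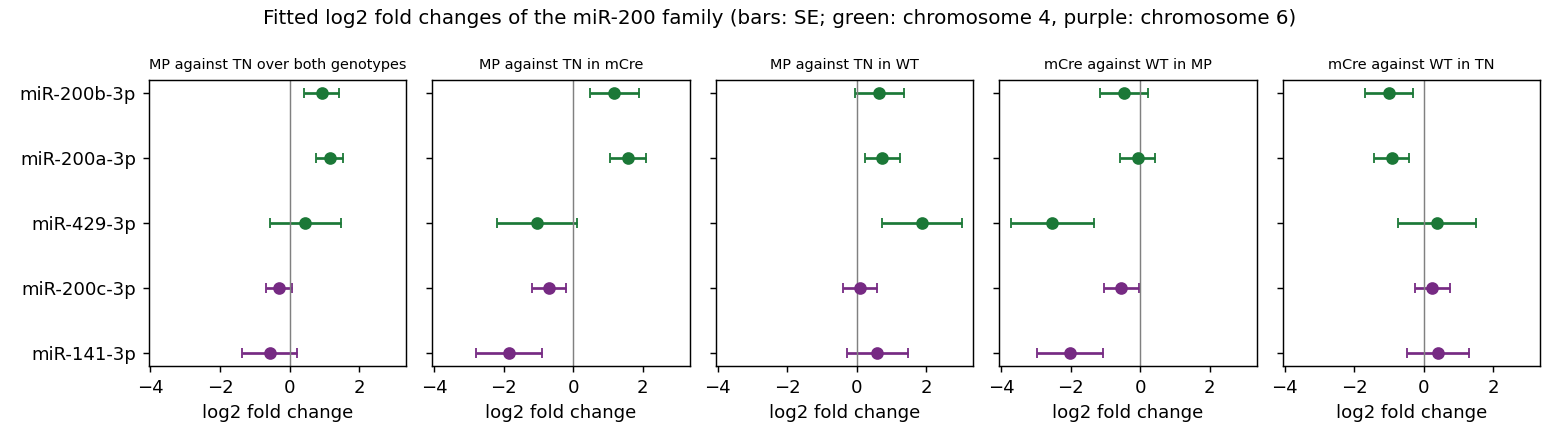
Fitted log2 fold changes (horizontal axes) of the 5 members in 5 comparisons, with bars for the SE, the chromosome 4 members in green and the chromosome 6 members in purple. In MP against TN over both genotypes miR-200a-3p lies at 1.15 and miR-200c-3p at -0.29, and no member passed the threshold in any panel.

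Because the family marks epithelial cells, 8 other epithelial miRNAs were read beside it. Their summed level was 1724 to 2197 CPM in MP and 1656 to 2808 CPM in TN, carried by miR-192-5p, miR-203-3p and miR-194-5p. miR-205-5p, a defining miRNA of stratified epithelium, had 24 counts in all, with 0 in 4 libraries, and miR-375-3p, known from secretory epithelium, had 38 counts, with 0 in 2 libraries. Of the 8, 6 passed the filter, 2 were fitted higher and 4 lower in MP against TN, and none passed the test, with or without both TN replicate 2 libraries. The 2 myeloid markers summed to 1.59 to 12.2 CPM in MP and 5.62 to 10.4 CPM in TN, and the 4 erythroid markers to 72.7 to 157 CPM in MP and 37.9 to 101 CPM in TN. The 7 endothelial and stromal markers averaged a sum of 64.3 ± 27.0 CPM in MP libraries and 41.8 ± 12.6 CPM in TN libraries (n = 4 each, SD). The part of such cells in the levels of the family was not tested.

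A further list held 8 miRNAs linked, with miR-200, to the ZEB and SNAIL repressors or to the epithelial state. Of these 5 were tested, all 5 were fitted above 0 in MP against TN, beside 49.5% of all miRNAs, and none passed. Their median log2 change was 1.73. The list was chosen with earlier results of these data known, so the shared direction is only described. It overlaps the epithelial list above in miR-203-3p and miR-205-5p. miR-203-3p, an epithelial miRNA repressed by ZEB1, was 847 ± 228 CPM in MP libraries and 582 ± 387 CPM in TN libraries (n = 4 each, SD), with a log2 change of 0.53 (edgeR adjusted p = 0.774). miR-182-5p, miR-183-5p and miR-96-5p come from 1 cluster. miR-182-5p was 793 ± 148 CPM in MP libraries and 244 ± 66.0 CPM in TN libraries (n = 4 each, SD), with a log2 change of 1.73 (edgeR adjusted p = 0.0602). miR-183-5p had a log2 change of 1.83 (edgeR adjusted p = 0.0935), and miR-96-5p was 11.2 ± 3.97 CPM in MP libraries and 4.02 ± 1.75 CPM in TN libraries (edgeR adjusted p = 0.258). The fifth, miR-34a-5p, had 45 counts in all. A fit without both TN replicate 2 libraries was chosen for this list after seeing the data. In it all 5 were again above 0, beside 46.4% of the 433 miRNAs tested. The 2 that passed were miR-182-5p (edgeR adjusted p = 0.0347) and miR-183-5p at 1.70 (edgeR adjusted p = 0.0277), while miR-203-3p was 0.17. These calls stand beside 49 of all 433 miRNAs in that fit, against 9 of 382 with all libraries.

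The miRNAs whose levels followed the family sum most closely over the 8 libraries were miR-6516-5p (Pearson's r = 0.940), miR-96-5p (0.904), miR-139-5p (0.844), miR-7667-5p (0.834) and miR-421-3p (0.825), among 375 miRNAs outside these hairpins. miR-6516-5p, miR-96-5p and miR-139-5p also led for the chromosome 4 cluster, at 0.939, 0.895 and 0.890. This is no separate reading, since that cluster makes up most of the family sum. For the chromosome 6 cluster the 3 closest were miR-107-3p (0.944), miR-700-3p (0.936) and miR-674-5p (0.933). No miRNA was on both of these lists of 3, which are short beside the 375 miRNAs compared. Over the 6 libraries left without both TN replicate 2 libraries, miR-96-5p came first for the family sum (r = 0.917), and miR-6516-5p, miR-139-5p, miR-421-3p and miR-7667-5p ranked 6, 16, 21 and 27. For the chromosome 4 cluster miR-96-5p, miR-6516-5p and miR-139-5p then ranked 1, 6 and 9. For the chromosome 6 cluster miR-700-3p, miR-107-3p and miR-674-5p ranked 3, 4 and 5. miR-139-5p averaged 4067 CPM, while the others averaged 7.58 to 37.7 CPM, and each r was picked as the highest of many and has no p.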

How the data were processed

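The authors deposited 1 table of expected counts, with 2128 rows of mature miRNAs and 8 library columns, which were matched to samples by replicate number, genotype and subset. Per the submitters' processing notes the build was mm10; no source used here names the aligner, counter or miRNA annotation. Per the labels' protocols, RNA of sorted cells was ligated into libraries and size selected. Rows of 1 name were summed and rounded to whole counts. Deposited values of miR-200a-3p, miR-141-3p, miR-200b-3p and miR-200c-3p were whole or lay at 0.5 above a whole number (tolerance 0.011), and the sum over each seed group was whole in 8 of 8 libraries, so reads look divided within a seed group; levels of near-identical members are uncertain to that extent.

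Filtering used filterByExpr (minimum count 10, minimum total 15) over the 4 groups, scaling TMM, and testing the quasi-likelihood F test of edgeR 4.0.16 (robust, R 4.3.3), with Benjamini-Hochberg adjustment over 382 miRNAs. An additive fit of subset and genotype gave MP against TN over both genotypes; a fit of 4 groups gave the other comparisons. SE is the absolute log2 change over the square root of F. Log2 CPM used a prior count of 2. The scripts were tested on simulated data. DESeq2 1.42.0, other scalings, no filter, a replicate block, the highest row per name and left-out libraries were the alternatives; leaving out both TN replicate 2 libraries for lists, correlations and seed shares was added after seeing the data. Libraries held 1936597 to 5230975 counts. The named miRNAs were the members, their partner strands, the closest in pattern (5 for the family sum, 3 for each cluster) and the fixed lists; members and lists were chosen with earlier results of these data known.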

Additional observations from a re-analysis of the deposited data

Results flagged for a closer look

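In 14 checks of 4 libraries each (5 members and 2 partner strands, in MP and in TN), 2 values stood far from the other 3 libraries, and chance flags about 1 in 20. Both concern miR-200a-5p. It was 71.5 CPM in mCre MP replicate 1, above the other 3 MP libraries at 14.1 to 21.8 CPM, and 24.8 CPM in the library labelled WT TN replicate 2, above the other 3 TN libraries at 6.24 to 8.84 CPM. These rest on 135 and 44 counts.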

How the results depend on the processing

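Each of 6 comparisons was repeated under 15 alternatives, 8 of them leaving out 1 library. The number of members past the threshold was 0 in all of them, including the fit with a replicate block. The numbers pair nothing by the labels, and deviations of same-numbered libraries from their group means correlated at -0.32 to 0.407. Of 450 member values 425 kept their direction and their side of the threshold, and 25 reversed. For miR-200c-3p in MP against TN within WT the log2 change was -0.091 with RLE scaling and with DESeq2, -0.004 with total count scaling, -0.17 with the highest row per name and -0.18 without both TN replicate 2 libraries, and -0.17 to 0.31 with 1 library left out. Without both TN replicate 2 libraries miR-141-3p in the same comparison was -0.21, and in mCre against WT within TN miR-429-3p, miR-141-3p and miR-200c-3p were -0.802, -0.697 and -0.017. miR-200a-3p in mCre against WT within MP was 0.078 with the highest row per name. With 1 library left out, miR-429-3p ran from -0.248 to 1.035 in MP against TN over both genotypes (lowest without WT TN replicate 2) and from -0.394 to 2.393 in mCre against WT within TN. miR-141-3p ran from -0.184 to 2.163 in MP against TN within WT and from -0.302 to 1.975 in mCre against WT within TN. miR-200a-3p ran from -0.226 to 0.108 in mCre against WT within MP, and miR-200b-3p from -0.371 to 1.427 for the difference of subset effects. The partner strand miR-200a-5p within mCre passed with DESeq2 (log2 change 2.71) and without WT TN replicate 1 (2.58). The cause of these changes was not tested. The number of miRNAs tested was 382, except in 4 kinds of fit. It was 877 with no filter, 374 with the highest row per name, 426 to 444 with 1 library left out and 433 without both TN replicate 2 libraries. Over all miRNAs tested, MP against TN over both genotypes called 9 in the main fit. It called 10, 9, 19, 26, 2 and 11 with RLE scaling, total count scaling, no filter, DESeq2, the replicate block and the highest row per name. With 1 library left out it called 0 to 41 (0 without mCre MP replicate 2, WT MP replicate 1 or WT MP replicate 2, and 41 without WT TN replicate 2), and 49 without both TN replicate 2 libraries. The other comparisons called 0 in the main fit. With no filter and with DESeq2, MP against TN called 24 and 41 in mCre and 6 and 10 in WT, the difference of subset effects 10 and 9, and mCre against WT in TN 1 with no filter. Without both TN replicate 2 libraries, MP against TN called 30 in mCre and 14 in WT, and mCre against WT in MP 63. With 1 library left out the ranges were 0 to 56 in mCre, 0 to 6 in WT and 0 to 68 for the difference, each highest without WT TN replicate 1. Counts of miR-429-3p and miR-141-3p, as low as 2 and 4, limit both. The mean family level was 1771 CPM with RLE scaling and 1811 CPM with total count scaling, against 1787 CPM.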
